A study of Populus ussuriensis with 20 samples.

Results

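The genes described here are the 150 gene models whose transcript level in wild-type poplar stem cuttings stood highest above all other sampled times at 12 h after cutting. The tissue was the lowest 0.5 cm of stem cuttings from in vitro plants of the poplar Populus ussuriensis, sampled for RNA sequencing at 6, 12, 24, 48 and 96 h after cutting. The cuttings were wild type (WT) or carried PuHox52 behind the 35S promoter of cauliflower mosaic virus (35S::PuHox52, here OE), a promoter active in most plant tissues. Cuttings of both genotypes were kept on Murashige and Skoog medium at reduced strength under 16 h of light and 8 h of dark, and no group was uncut. Each of the 10 groups held 2 libraries, each made from 40 pooled cuttings. The plants were 2 weeks old by the series text and 4 weeks old by the growth protocol, and the number of transgenic lines behind the OE cuttings is not stated. To choose the genes, CPM values (a gene's count divided by all counts of its library, times 1e6) were averaged over the 2 WT libraries of each time, and 17983 of the 39538 gene models had a WT mean of at least 5 CPM at 12 h. A gene's score was the log2 ratio of its WT mean at 12 h to the highest of its other 4 WT means, with 1 CPM added to both, and the 150 highest scores were taken. The genes were thus chosen by their WT levels at all 5 times. The OE libraries took no part in the choice.

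Cut stems of poplar form adventitious roots from cells near the vascular tissue at the cut base. Wounding is known to set off a fast response that includes jasmonate, and auxin moving down the stem gathers at the base and is needed for root founder cells. PuHox52 is named as a homeobox gene, a class that encodes DNA-binding regulators of transcription. In plants many transcripts also cycle with the hour of day under light and dark. The hour of day at cutting is not given. If all cuttings were cut at the same hour, the samples at 24, 48 and 96 h shared an hour of day. Those at 6 and 12 h then each fell at another. At 12 h, time since cutting and time of day thus cannot be told apart. The deposited tables pair no gene with a name or product, so genes are given by their IDs and no role is stated for any of them. The tissue label could not be checked against marker genes for the same reason. The level of PuHox52 was not checked either. In whole tissue, fewer cells of a type and less RNA per cell cannot be told apart.

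The libraries held 10399262 to 27472303 counts. Replicates of a group differed beyond counting noise, with a chi-square of 4.48 to 16.19 per degree of freedom and a Spearman correlation over genes of 0.9853 to 0.99. One WT library carried more of the 12 h excess than its partner. WT 12 h replicate 1 lay above replicate 2 in 119 of the 150 genes (79.3%), against 48.6% of the 17983 eligible genes, and the median log2 ratio of replicate 1 to replicate 2 was 0.25 in the 150 genes and -0.01 in the eligible genes. The rule chose 92 of the 150 genes again without WT 12 h replicate 1 and 109 without replicate 2. In OE at 12 h, replicate 1 was above replicate 2 in 81 of the 150 genes (54%). What moved with this difference was not tested.

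**Figure D1:**
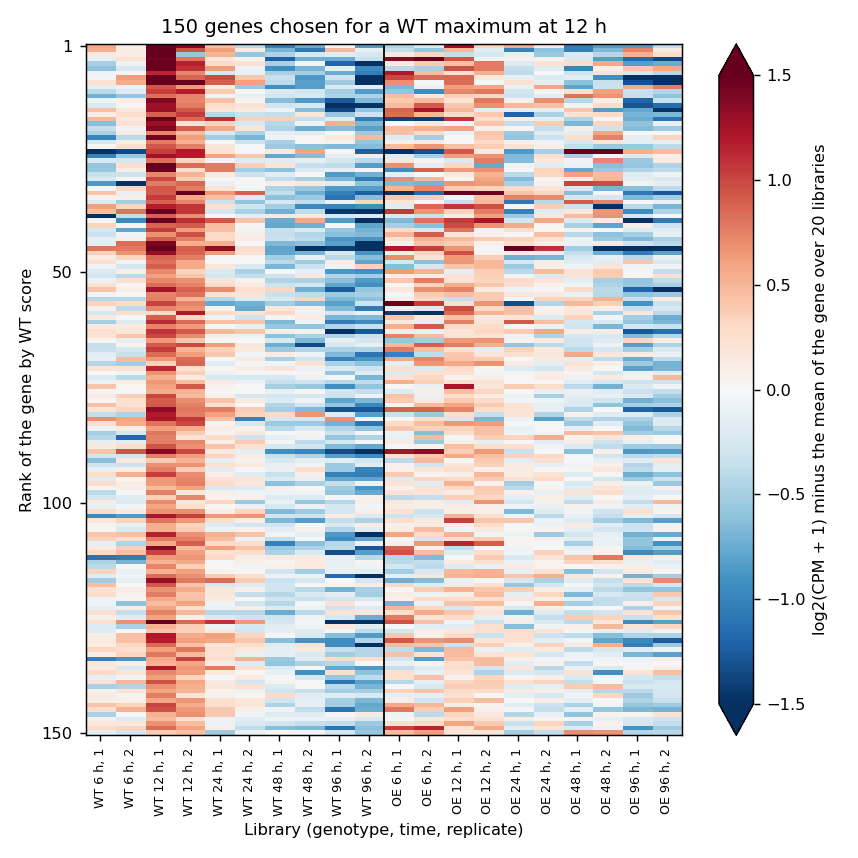
Level of each of the 150 genes (rows, ordered by WT score) in each of the 20 libraries (columns), as log2(CPM + 1) minus the gene's mean over all libraries. The columns of WT at 12 h are the darkest red, replicate 1 more than replicate 2, and the OE columns at 12 h are red in fewer rows and more faintly.

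In WT the 12 h excess was mostly modest. Scores ran from 1.29 to 0.41 with a median of 0.52, a median fold of 1.44 over the next highest time, and 5 genes reached a score of at least 1. These values chose the genes and are given without a test. The median log2 ratio of the WT mean at 12 h was 0.73 over 6 h, 0.64 over 24 h, 1.07 over 48 h and 1.25 over 96 h. The next highest WT time was 24 h for 76 genes, 6 h for 52, 48 h for 16 and 96 h for 6, and the lowest WT time was 96 h for 94. WT means fell in order from 24 to 48 to 96 h in 79 genes (52.7%), against 27.8% of eligible genes. Standing higher at 12 h than at each other WT time was set by the rule. Most genes of the list were lowest at the last time, a count not made over eligible genes. Both WT libraries at 12 h lay above the other 8 WT libraries in 133 of the 150 genes. The share was 5.26% of eligible genes, and the rule used this contrast. In the remaining 17 genes the WT groups overlapped, and in 16 of these replicate 1 was above the other 8 libraries and replicate 2 was not.

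As a share of all counts, the 150 genes together held 1.88 and 1.67% of the 2 WT libraries at 12 h. Their share was 0.916 and 0.989% at 6 h, then 1.15 and 1.04% at 24 h, then 0.812 and 0.849% at 48 h, then 0.649 and 0.61% at 96 h. In OE the share was 1.07 and 1.19% at 6 h, then 1.35 and 1.35% at 12 h, then 1.03 and 1.05% at 24 h, then 0.995 and 0.989% at 48 h, then 0.693 and 0.728% at 96 h. In both genotypes the 12 h libraries held the highest shares and the 96 h libraries the lowest, and the span between them was smaller in OE. The rule took genes high in WT at 12 h and lower at the other WT times. The choice thus set the WT maximum and favoured a wider span in WT, and no test is given.

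**Figure D2:**
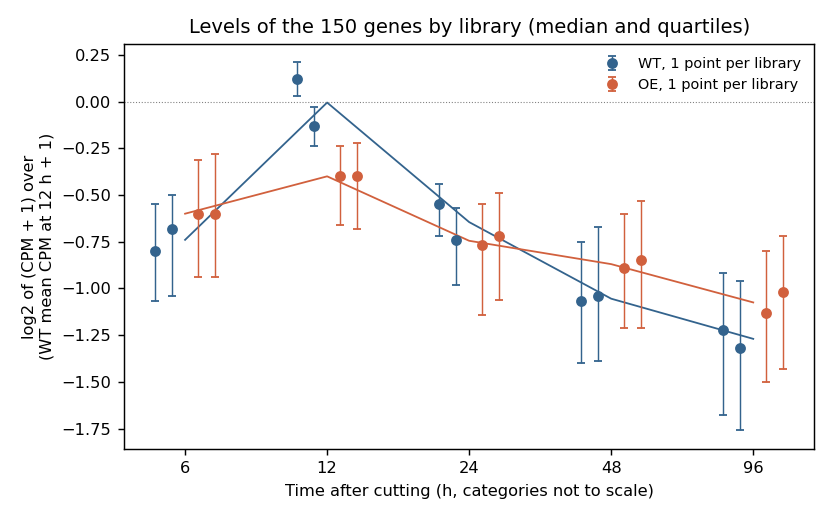
Median of the 150 genes in each library, as log2 of CPM + 1 over the gene's WT mean at 12 h + 1, with bars from the first to the third quartile over genes and lines through the mean of the 2 library medians. The WT medians run from -0.8 and -0.68 at 6 h through 0.12 and -0.13 at 12 h to -1.22 and -1.32 at 96 h, while the OE medians run from -0.6 at 6 h through -0.4 at 12 h to -1.13 and -1.02 at 96 h.

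The gene with the highest WT score was Potri.014G134200.v3.0 (chromosome 14, 10217931 to 10218613, plus strand), a model of 683 bases with no intron. Its WT levels were 4.71 and 3.09 CPM at 6 h, then 13 and 9.03 at 12 h, then 4.24 and 1.91 at 24 h, then 0.876 and 1.27 at 48 h, then 2.89 and 1.14 at 96 h. In OE it stood at 1.78 and 2.28 CPM at 6 h, then 8.3 and 3.75 at 12 h, then 4.62 and 3.16 at 24 h, then 0.854 and 1.16 at 48 h, then 1.15 and 1.96 at 96 h. Both genotypes thus had their highest mean at 12 h, with no overlap in WT, while in OE the lower 12 h library fell below the higher 24 h library. The second gene, Potri.001G015100.v3.0, had 9.93 and 3.75 CPM in WT at 12 h and at most 2.77 in any other WT library. Its highest OE mean was at 96 h, with 3.13 and 1.66 CPM, but OE at 12 h overlapped with 2.46 and 1.16 CPM. OE at 12 h was not called different from 96 h (log2 difference -0.29, SE 0.489, edgeR adjusted p = 0.679). The third, Potri.015G137100.v3.0, owed its place to 1 library, with 10.4 CPM in WT 12 h replicate 1 and 0.655 in replicate 2, and with 0.66 to 2.53 CPM in the other 8 WT libraries. Its OE levels of 0.953 and 1.11 CPM at 12 h were lower than the 2.56 and 2.0 CPM at 96 h. The last genes inside were Potri.010G229000.v3.0 and Potri.005G039800.v3.0, with scores of 0.41 and 0.408, and the genes just outside, Potri.005G220700.v3.0 and Potri.T012500.v3.0, scored 0.406 and 0.405. The limit of 150 therefore cuts through a continuous range.

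The question the OE libraries can answer is whether these genes also stood high at 12 h in cuttings that did not choose them. They often did, though less sharply. The highest of the 5 OE means was at 12 h for 72 of the 150 genes (48%), against 9.62% of eligible genes. It was at 6 h for 45 genes (30%, against 37.1% of eligible genes) and at 48 h for 18 (12%, against 16.3%). It was at 96 h for 8 (5.33%, against 27.8%) and at 24 h for 7 (4.67%, against 9.16%). Both OE libraries at 12 h lay above the other 8 OE libraries in 30 genes (20%), against 2.26% of eligible genes. The median log2 ratio of the OE mean at 12 h was 0.13 over 6 h, 0.36 over 24 h, 0.42 over 48 h and 0.62 over 96 h, each smaller than the WT value, which had chosen the genes. Over the eligible genes these OE medians lay between 0.00 and 0.03.

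Each OE time was tested against 12 h with edgeR's quasi-likelihood test on the 10 OE libraries, and a gene was called when its Benjamini-Hochberg adjusted p over 26001 genes was under 0.05. All 150 genes passed the filter on low counts, none of them through the 12 h libraries alone. Against the mean of the other 4 times, 44 of the 150 genes were called higher in OE at 12 h, where the share over all genes tested was 2.51%. Against 96 h, 96 genes were called higher (17.3% over all genes tested). Against 48 h, 57 genes were called higher (10.3%). Against 24 h, 8 genes were called higher (0.331%), and against 6 h, 32 (14.9%). As shares of the 150 genes these were 29.3% against the mean, 64% against 96 h, 38% against 48 h, 5.33% against 24 h and 21.3% against 6 h. As a ratio to its background, the share was lowest against 6 h. In the other direction 11 genes were called lower at 12 h than at 6 h (16.5% over all genes tested), 2 lower than at 48 h (8.03%), and 1 lower than at 96 h (14.7%). No gene was called lower than at 24 h (1.06%), than the mean (1.67%) or than at each of the 4 times (0.204%), by edgeR with the filter or by DESeq2. Without the filter edgeR called 1 lower than at 24 h. At an unadjusted p under 0.05 edgeR counted 2, 0 and 0 genes in these 3 comparisons. The median log2 difference between 12 h and the mean of the other times was 0.44 in the 150 genes and 0.02 in all genes tested.

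These counts leaned on single libraries. Over all genes tested, calls against 6, 24 and 48 h also fell in the settings listed here. The loss of calls was thus not limited to the 150 genes. Without OE 12 h replicate 1, 2 of the 150 genes were called against the mean, and 40 genes in all. Without OE 96 h replicate 1 the count against the mean was 26 and without replicate 2 it was 21. The 57 genes called against 48 h became 12 when OE 12 h replicate 1 was left out. They became 33 or 18 when replicate 1 or 2 of OE at 48 h was. The 32 genes against 6 h became 20 without OE 6 h replicate 1 and 20 without OE 12 h replicate 1. The 8 genes against 24 h became 0 when replicate 1 of OE at 12 h or at 24 h was left out. They became 2 when OE 24 h replicate 2 was, and 3 when either OE 96 h library was. The 11 genes lower than at 6 h became 5 without OE 6 h replicate 1 and 6 without OE 12 h replicate 2. The 2 genes lower than at 48 h became 1 without OE 12 h replicate 1 or OE 48 h replicate 1, and 0 without OE 48 h replicate 2. The gene lower than at 96 h was lost without either library of 12, 48 or 96 h. The count of genes with their highest OE mean at 12 h moved less, between 61 and 77.

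**Figure D3:**
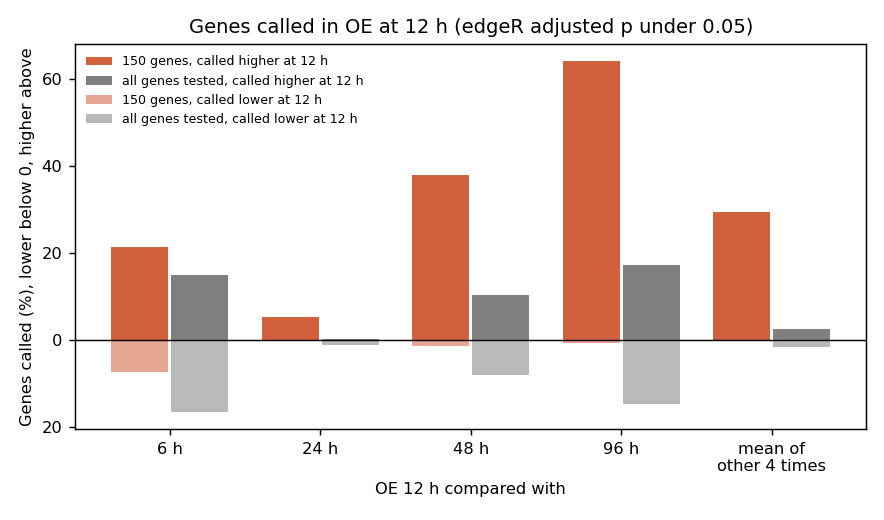
Share of the 150 genes (orange) and of all 26001 genes tested (grey) called in OE at 12 h against each other time and against the mean of the other 4 times, with genes called higher above the 0 line and genes called lower below it. The orange bars above the line exceed the grey ones at each comparison (21.3 against 14.9% at 6 h, 5.33 against 0.331% at 24 h), and the orange bars below the line are the shorter ones.

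Counted over the 4 single times, 40 of the 150 genes were called higher in OE at 12 h against none, 48 against 1, 43 against 2, 17 against 3 and 2 against all 4. In the same order these were 26.7, 32, 28.7, 11.3 and 1.33% of the list, and 68, 21.9, 9.4, 0.619 and 0.0346% of all genes tested. The larger of these 2 genes in OE was Potri.018G066900.v3.0 (chromosome 18, 8520693 to 8522685, plus strand), at rank 33 in WT. Its OE levels were 2.48 and 3.33 CPM at 6 h, then 41.0 and 25.7 at 12 h, then 12.1 and 11.2 at 24 h, then 5.28 and 8.88 at 48 h, then 3.65 and 3.08 at 96 h. Both OE libraries at 12 h thus lay well clear of the other 8. The difference from the mean of the other times was 2.69 on the log2 scale (SE 0.189, 6.44-fold, edgeR adjusted p = 0.000184), and it was 11.4-fold over 6 h (edgeR adjusted p = 8.88e-05). Its WT levels were 12.0 and 7.98 CPM at 6 h, then 17.5 and 34.2 at 12 h, then 14.3 and 17.1 at 24 h, then 6.57 and 4.9 at 48 h, then 3.83 and 3.16 at 96 h. In WT the lower 12 h library was just above the higher 24 h library, and the level at 6 h was higher than in OE.

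The other gene called against all 4 times was Potri.013G013800.v3.0 (chromosome 13, 889000 to 892398, plus strand), at rank 109. Its OE levels were 20.1 and 30.4 CPM at 6 h, then 43.2 and 36.4 at 12 h, then 19.6 and 18.5 at 24 h, then 13.1 and 17.6 at 48 h, then 12.2 and 9.62 at 96 h. The groups did not overlap at 12 h, and the difference from the mean of the other times was 1.27 on the log2 scale (SE 0.15, edgeR adjusted p = 0.002). Without OE 12 h replicate 1 that adjusted p was 0.0539, the highest over the 14 alternatives that did not ask for more than a 2-fold change, whose lowest was 8.62e-10. Its WT levels were 28.6 and 36.3 CPM at 12 h and between 8.91 and 23.6 in the other 8 libraries. Without OE 12 h replicate 1, or either OE 24 h library, neither gene was called against all 4 times, and 1 was without OE 6 h replicate 1 or either OE 96 h library.

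**Figure D4:**
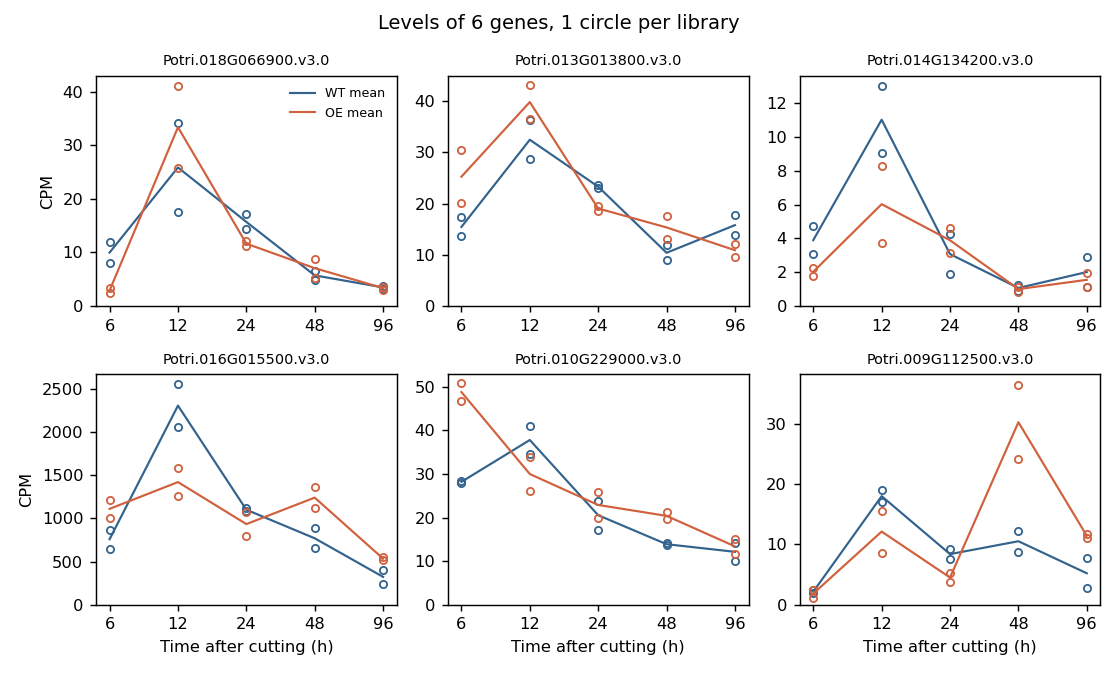
CPM of 6 genes in each library (circles) against time after cutting, with lines through the means of the 2 libraries of WT (blue) and OE (orange) and times evenly spaced. Potri.018G066900.v3.0 and Potri.013G013800.v3.0 are highest at 12 h in both genotypes, Potri.010G229000.v3.0 is highest at 6 h in OE, and Potri.009G112500.v3.0 is highest at 48 h in OE.

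The 44 genes called higher in OE than the mean of the other times had log2 differences of 0.41 to 2.69 with a median of 0.69, and 13 of them were at least 2-fold. For 36 the highest OE mean was at 12 h, for 5 at 6 h, for 2 at 48 h and for 1 at 24 h. Calls followed the level of the gene. Of the 29 genes with under 10 CPM in WT at 12 h, 3 were called, of the 87 between 10 and 100 CPM 20 were called, and of the 34 with at least 100 CPM 21 were called. Among eligible genes of the same 3 levels, 1.1, 2.89 and 8.8% were called.

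By level per transcript length, the 150 genes had a median of 18.4 FPKM (fragments per kilobase of model, scaled to library depth) in WT at 12 h, against 14.9 for eligible genes. The highest was Potri.014G149900.v3.0 (chromosome 14, 11496745 to 11497691, plus strand), with a mean of 2100 FPKM in WT and 1640 in OE at 12 h (n = 2). In OE it stood at 355 and 279 CPM at 6 h, then 883 and 931 at 12 h, then 444 and 554 at 24 h, then 634 and 823 at 48 h, then 426 and 395 at 96 h. In WT it stood at 407 and 470, 1100 and 1220, 706 and 541, 463 and 440, and 378 and 300 CPM at the same times. Neither genotype overlapped at 12 h with its other times. In OE it was 0.98 higher on the log2 scale than the mean of the other times (SE 0.126, edgeR adjusted p = 0.00305), with adjusted p of at most 0.0497 over the 14 alternatives other than the test for more than a 2-fold change, which left 1 gene of the list called.

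Potri.016G015500.v3.0 (chromosome 16, 840589 to 842831, minus strand) had the highest CPM of the list and 1830 ± 288 FPKM in WT at 12 h (n = 2). Its WT levels were 649 and 869 CPM at 6 h, then 2550 and 2060 at 12 h, then 1120 and 1080 at 24 h, then 656 and 883 at 48 h, then 403 and 243 at 96 h. Its OE levels were 1010 and 1210, 1260 and 1580, 798 and 1070, 1120 and 1360, and 518 and 550 CPM. WT at 12 h was clear of all other WT libraries, whereas in OE the 12 h and 48 h libraries overlapped. The OE difference from the mean was 0.66 on the log2 scale (SE 0.129, edgeR adjusted p = 0.021), and it was lost without either OE 12 h library and without either OE 96 h library (adjusted p up to 0.112). Against 48 h alone the OE difference was 0.24 (SE 0.17, edgeR adjusted p = 0.358).

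The next 3 by FPKM in WT at 12 h were Potri.004G168800.v3.0 with 1130 ± 33.8, Potri.002G082100.v3.0 with 544 ± 13 and Potri.006G002100.v3.0 with 478 ± 156 (n = 2 each). In OE they were 0.55, 0.56 and 0.69 higher on the log2 scale at 12 h than the mean of the other times (edgeR adjusted p = 0.0224, 0.0313 and 0.0299). Each of the 3 calls was lost without OE 12 h replicate 1 and without either OE 96 h library, and that of Potri.002G082100.v3.0 also without OE 12 h replicate 2 or OE 24 h replicate 2. Potri.004G168800.v3.0 stood at 1970 and 1910 CPM in WT at 12 h and between 1060 and 1380 in the other WT libraries. Its OE levels were 1830 and 1680 CPM at 12 h and between 1050 and 1420 at the other times. In both genotypes the 12 h libraries thus stood above all others by a narrow margin.

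Some genes of the list had other time courses in OE. Both WT libraries were higher and both OE libraries lower at 12 h than at 6 h in 28 genes (1.58% of eligible genes). Against 24 h this held for 3 genes (1.51%), against 48 h for 10 (1.08%) and against 96 h for 2 (1.45%), and the WT side of this count is part of the rule. In OE alone, both libraries were lower at 12 h than at 6 h in 29 genes (19.3%, against 33.4% of eligible genes) and lower than at 48 h in 10 (6.67%, against 30%). In 13 of the 150 genes (8.67%) OE at 12 h was called lower than at 1 or 2 of the other times, against 32.3% of all genes tested called lower than at 1 or more. The 11 called lower than at 6 h had log2 differences of -1.05 to -0.44, and 8 of these 11 were called higher than at 96 h. Potri.010G229000.v3.0 (chromosome 10, 21147944 to 21153144, minus strand) is an example, with 46.8 and 50.8 CPM in OE at 6 h, then 26.2 and 33.8 at 12 h, then 19.9 and 25.9 at 24 h, then 19.6 and 21.2 at 48 h, then 11.6 and 15.2 at 96 h. Its WT libraries gave 27.9 and 28.5 CPM at 6 h, then 41.0 and 34.6 at 12 h, then 23.9 and 17.2 at 24 h, then 14.1 and 13.7 at 48 h, then 10.1 and 14.2 at 96 h. OE was thus highest at 6 h and fell by 0.75 on the log2 scale to 12 h (SE 0.155, edgeR adjusted p = 0.00495), while WT stood higher at 12 h than at 6 h.

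Potri.009G112500.v3.0 (chromosome 9, 9594032 to 9594787, plus strand) was called lower in OE at 12 h than at 48 h. Its OE levels were 1.19 and 2.52 CPM at 6 h, then 15.6 and 8.66 at 12 h, then 3.84 and 5.19 at 24 h, then 24.1 and 36.4 at 48 h, then 11.8 and 11.1 at 96 h. Its WT levels were 1.92 and 2.41 CPM at 6 h, then 17 and 19 at 12 h, then 9.2 and 7.59 at 24 h, then 8.76 and 12.3 at 48 h, then 7.72 and 2.72 at 96 h. OE thus had a rise at 12 h, 6.74-fold over 6 h (edgeR adjusted p = 0.000766), and a higher level at 48 h, from which 12 h differed by -1.25 on the log2 scale (SE 0.303, edgeR adjusted p = 0.0182). Potri.005G039800.v3.0, at rank 150, was called lower at 12 h than both 6 h and 48 h and higher than both 24 h and 96 h, with 12.7 and 12.5 CPM in OE at 12 h against 15.8 and 17.4 at 6 h or 18.5 and 18.2 at 48 h. The gene called lower than at 96 h was Potri.015G137100.v3.0 (log2 difference -1.08, SE 0.358, edgeR adjusted p = 0.0416).

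The 5 genes with the smallest OE difference between 12 h and the mean of the other times were Potri.015G137100.v3.0, Potri.002G252400.v3.0, Potri.011G030000.v3.0, Potri.001G163600.v3.0 and Potri.014G150200.v3.0. Their log2 differences were -0.47, -0.29, -0.17, -0.11 and -0.09, and none was called (edgeR adjusted p = 0.43 to 0.813). Potri.014G150200.v3.0 showed an almost level course in OE, at 11.9 and 12.7 CPM at 12 h and between 10.3 and 15.2 at the other times. In WT it stood at 23.5 and 18 CPM at 12 h and between 10.3 and 15.3 elsewhere, without overlap.

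Set side by side at 12 h, OE was the lower genotype for most of the list. Because the rule took genes with WT high at 12 h and lower at the other 4 times, it used the WT side of each of these comparisons, and the values are a description with no test. The OE mean was below the WT mean in 145 of the 150 genes at 12 h (47.2% of eligible genes), with a median log2 difference of -0.41. Both OE libraries lay below both WT libraries in 111 genes (17% of eligible genes) and above both in 1 (21.0%). At 6 h the median was 0.2, and both OE libraries were above both WT libraries in 69 genes (24.2%). At 24 h the median was -0.07, with both OE libraries below in 50 genes (15.4%). At 48 and 96 h the medians were 0.13 and 0.17, with both OE libraries above in 64 and 65 genes (14.9% and 33.5%). Over the eligible genes the medians lay between 0 and 0.04 at the 5 times. The lowest OE minus WT values at 12 h on the log2 scale were -1.69 for Potri.015G137100.v3.0, -1.61 for Potri.002G252400.v3.0, -1.48 for Potri.001G015100.v3.0, -1.48 for Potri.002G202600.v3.0 and -1.42 for Potri.006G068900.v3.0. The highest were 0.36 for Potri.018G066900.v3.0, 0.29 for Potri.013G013800.v3.0, 0.12 for Potri.001G359000.v3.0, and 0.02 each for Potri.002G184100.v3.0 and Potri.012G055600.v3.0. All 5 of the latter were also called higher in OE at 12 h than the mean of the other times. The calls of Potri.001G359000.v3.0 and Potri.012G055600.v3.0 were lost without OE 12 h replicate 1, and that of Potri.002G184100.v3.0 in 8 of these 14 alternatives.

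Across the 150 genes the Spearman correlation between the WT score and the same score computed in OE was -0.026. This is a description over genes measured in the same libraries, within a range of WT scores that the choice of the 150 had cut short. The median OE score was -0.016 with a range of -1.37 to 1.44, against a median of -0.297 for eligible genes. For the first, middle and last 50 genes by WT rank, the highest OE mean was at 12 h in 21, 30 and 21 genes, and both OE libraries at 12 h were above the other 8 in 10, 9 and 11. When the same rule was applied to the OE libraries, 25 of its 150 genes were on the WT list, 16.7% of each list. Of all eligible genes, 0.745% were on the OE list.

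**Figure D5:**
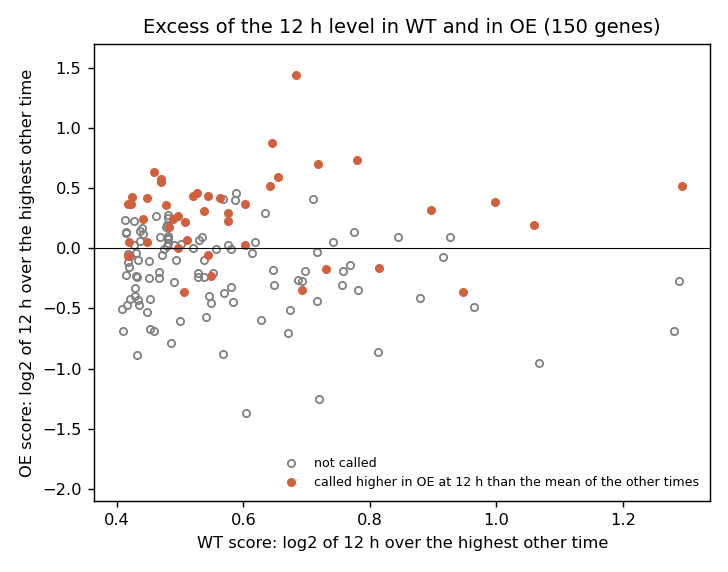
Score of each of the 150 genes in WT (horizontal axis) against the same score computed in OE (vertical axis), both as log2 of the 12 h mean over the highest other mean with 1 CPM added. Filled points are the 44 genes called higher in OE at 12 h than the mean of the other times, and they lie along the whole range of WT scores.

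The WT time that came second is part of the rule's measure, and the OE course by that time is described without a test. Of the 76 genes with 24 h second, 38 (50%) had their highest OE mean at 12 h and 22 at 6 h. Of the 52 genes with 6 h second, the highest OE mean was at 12 h in 27 (51.9%) and at 6 h in 21. Of the 16 genes with 48 h second, 8 had their highest OE mean at 48 h and 5 at 12 h. Of the 6 genes with 96 h second, 3 had it at 48 h and 2 at 12 h. Over the whole list the highest OE mean was at 12 h in 48%, near the shares of the 2 larger groups. The groups of 16 and 6 genes are small. OE means fell in order from 24 to 48 to 96 h in 62 of the 150 genes (41.3%), against 26.9% of eligible genes.

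Measures that took no part in the choice were the structure and place of the gene models. The deposited length equalled the span from start to end, so that the model held no intron, in 27 of the 150 genes (18%), against 6.71% of eligible genes. Of these 27, 15 had their highest OE mean at 12 h and 7 were called higher than the mean, against 57 and 37 of the 123 genes with introns. Their median level in WT at 12 h was 23.8 FPKM against 18.1. The median length of the 150 models was 1788 bases, against 1999 for eligible genes. Models on the plus strand made up 55.3%, against 49.7%.

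The genes lay on all 19 chromosomes, and 4 lay on scaffolds outside them. Chromosome 1 held 20 (13.3% of the list, 11.8% of eligible genes), chromosome 16 held 11 (7.33%, 3.56%) and chromosome 9 held 11 (7.33%, 4.78%). In 10 pairs the members had at most 4 gene models between them, and 3 pairs were direct neighbours. One neighbouring pair, named here for its position, was Potri.004G007000.v3.0 and Potri.004G007100.v3.0 on the plus strand of chromosome 4 (445632 to 446278 and 448818 to 449517). Both models held no intron, with 647 and 700 bases, and lay 2539 bases apart. In WT at 12 h they stood at 7.07 and 5.28 CPM and at 8.33 and 6.3 CPM. In OE at 12 h they stood at 3.65 and 1.95 CPM and at 5.64 and 3.38 CPM. In OE both were called higher at 12 h than at 96 h (log2 differences 2.48 and 3.51, edgeR adjusted p = 0.0222 and 0.00165). Neither was called against the mean of the other times (log2 differences 0.59 and 1.23, edgeR adjusted p = 0.531 and 0.0812). The highest OE mean of Potri.004G007000.v3.0 was at 6 h, with 5.07 and 6.75 CPM. No sequence was at hand to tell whether these models are near copies, which would leave the split of reads between them uncertain.

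The longest run was on the plus strand of chromosome 9, where Potri.009G111800.v3.0, Potri.009G112000.v3.0 and Potri.009G112500.v3.0 lay between 9541528 and 9594787 with 1 and 4 models between neighbours. In OE the third gene had another course than the first and second. Potri.009G111800.v3.0 stood at 33.0 and 26.7 CPM in OE at 12 h and between 18.8 and 34.5 at the other times. Potri.009G112000.v3.0 stood at 18.3 and 24.5 CPM at 12 h and between 10 and 23.0 at the other times, and Potri.009G112500.v3.0 was highest at 48 h. In WT at 12 h Potri.009G111800.v3.0 overlapped its other times, with 69.2 and 37.2 CPM at 12 h and up to 45.9 at 6 h.

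Another gene model overlapped 22 of the 150 genes (14.7%, against 13.5% of eligible genes), and for 18 at least one such model lay on the other strand. Overlap was scored on whole spans with introns included, and overlap of exons was not checked. The strand setting of the counting is not given in the sources used here. Where exons overlap, reads of such partners might not be told apart, so the values of these 22 genes may be uncertain. Potri.019G121900.v3.0, at rank 8, is among them. It had 131 and 52.2 CPM in WT at 12 h and up to 56.5 at 24 h, then 51.5 and 31.6 CPM in OE at 12 h against 57.0 and 50.8 at 6 h. Both genotypes overlapped between 12 h and another time. Its OE difference from the mean of 0.98 on the log2 scale (SE 0.203, edgeR adjusted p = 0.0275) was lost in a fit over all 20 libraries and when OE 12 h replicate 1 or OE 96 h replicate 2 was left out. On scaffold 25, Potri.T012400.v3.0 of the list spans Potri.T012600.v3.0, also of the list, and Potri.T012500.v3.0, which ranked just outside it, both on the other strand. Their WT levels at 12 h were 258 and 163 CPM, 19.2 and 14.2 CPM, and 342 and 264 CPM. All 3 had WT libraries at 12 h above their other WT libraries, and none of their OE groups at 12 h did so in both libraries.

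The remaining genes among the 10 highest WT scores divided in OE. Potri.011G046600.v3.0 (chromosome 11, 3965978 to 3969575, plus strand) had 29.8 and 22.6 CPM in WT at 12 h and at most 16.0 at other times. In OE it had 20.3 and 17.9 CPM at 12 h and at most 15.3 at other times, without overlap, and a log2 difference from the mean of 1.12 (SE 0.206, edgeR adjusted p = 0.0173, lost without OE 12 h replicate 1). Potri.016G049600.v3.0 had 72.0 and 60.5 CPM in WT at 12 h and 36.1 and 19.3 CPM in OE, where it overlapped 32.3 and 19.3 CPM at 6 h (log2 difference from the mean 0.93, SE 0.237, edgeR adjusted p = 0.0555). Potri.001G452400.v3.0 had 8.67 and 6.92 CPM in WT and 6.83 and 6.55 CPM in OE at 12 h, and OE at 96 h was as high, with 6.47 and 7.7 CPM. Potri.005G181500.v3.0 had 7.74 and 4.59 CPM in WT at 12 h against 1.92 and 2.71 at 6 h, then 5.12 and 2.06 CPM in OE at 12 h against 7.17 and 8.62 at 6 h. Potri.001G326200.v3.0 had 14 and 10.2 CPM in WT at 12 h and 6.95 and 8.82 CPM in OE, where 6 h gave 14.6 and 8.37 CPM. Of the 10 genes, 4 were called higher in OE than the mean of the other times, among them Potri.014G134200.v3.0 (log2 difference 1.72, SE 0.296, edgeR adjusted p = 0.0129), whose call was lost without OE 12 h replicate 1 (adjusted p 0.349).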

How the data were processed

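Each of the 20 libraries came as a table of 39538 gene models. The deposited count column held whole numbers, with totals of 10399262 to 27472303 per library, and was used for CPM and for all tests. The FPKM column deposited by the authors was used to compare levels between genes, and the deposited normalized signal, scaled by the authors for each library, was not used. The submitters' processing notes list TopHat2 2.1.1 and HTSeq 0.6.0. Neither genome build, annotation nor strandedness of the counting is given in the sources used here. Coordinates were read from the deposited tables.

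The WT libraries chose the 150 genes, so tests used the 10 OE libraries alone, with edgeR 4.0.16 in R 4.3.3 (TMM scaling, filterByExpr, group means, glmQLFit and glmQLFTest, 5 residual degrees of freedom). Adjusted p-values are Benjamini-Hochberg over the 26001 genes tested in a contrast. SE is the size of the log2 difference over the square root of F. The biological coefficient of variation was 0.127. Alternatives were RLE scaling, no filter, all 20 libraries, DESeq2 1.42.0, glmTreat against a log2 fold change of 1, each library left out, and other settings of the rule.

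The gene rule and lists were chosen with earlier results of these data known. Named genes were the 10 highest WT scores, ranks 149 to 152, genes called against all 4 times, the 5 smallest OE differences, the 5 highest FPKM, the 5 largest and smallest OE minus WT values at 12 h, and the longest run of neighbours. The pair on chromosome 4 and the models on scaffold 25 were added for their position after their values were seen. Planned lists by product, marker genes and promoter motifs were not formed, because no annotation or sequence was used here. Labels carry no replicate numbers, so the numbers only name libraries. With 2 replicates a group, precision is limited by replicate spread, and the series text calls the replicates biological.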

Additional observations from a re-analysis of the deposited data

Results flagged for a closer look

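The genotypes moved in opposite directions in some genes, meaning that both WT libraries were higher and both OE libraries lower at 12 h than at another time. The difference between the genotypes was not tested, and the WT direction was part of the choice of genes. This was so for 28 of the 150 genes against 6 h (1.58% of eligible genes), for 3 against 24 h (1.51%), for 10 against 48 h (1.08%) and for 2 against 96 h (1.45%). In OE alone, both libraries were lower at 12 h than at 6 h in 19.3% of the list against 33.4% of eligible genes, and lower than at 48 h in 6.67% against 30%. The joint shares for 24 and 96 h, 2 and 1.33% of the list, were near those of eligible genes. Among the named genes, the log2 ratio of OE at 12 h over 6 h was -0.95 for Potri.005G181500.v3.0, -0.89 for Potri.002G202600.v3.0, -0.69 for Potri.011G030000.v3.0, -0.68 for Potri.010G229000.v3.0, -0.61 for Potri.002G252400.v3.0, -0.37 for Potri.005G039800.v3.0 and -0.36 for Potri.006G002100.v3.0. Over 48 h it was -1.25 for Potri.009G112500.v3.0 and -0.51 for Potri.005G039800.v3.0. Potri.014G150200.v3.0 stood opposite to WT at 3 times, with -0.24 over 24 h, -0.19 over 48 h and -0.14 over 96 h. In the tests on OE none of these 3 differences was called (edgeR adjusted p = 0.497, 0.464 and 0.626). Nor was that from 6 h called for Potri.005G181500.v3.0, Potri.002G252400.v3.0 and Potri.006G002100.v3.0 (edgeR adjusted p = 0.0571, 0.116 and 0.138). The other differences of named genes listed here were called lower.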

How the results depend on the processing

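Of the 30 named genes, none had a called OE difference from the mean that changed sign under its 15 alternatives, and 7 differences called in neither fit did. Requiring more than a 2-fold change (glmTreat) gave 1 gene called higher in OE than the mean, 4 against 6 h, 0 against 24 h, 1 against 48 h, 11 against 96 h and 0 against all 4, and 0 genes called lower than at 6, 48 or 96 h. Over all genes tested, glmTreat called 168 higher against 6 h, 1 against 24 h, 27 against 48 h and 185 against 96 h. Without a filter the counts were 68 against the mean, 19 against 24 h, 4 against all 4, and 1 lower than at 24 h. Over all 20 libraries they were 17 against 24 h, 4 against all 4, 4 lower than at 48 h and 0 lower than at 96 h. DESeq2 gave 20 against 24 h, 4 against all 4 and 0 lower than at 96 h. The higher counts against 24 h were not limited to the list. Over all genes, 86 were called higher than at 24 h in the main fit. This became 209 without a filter, 203 over all 20 libraries and 204 with DESeq2. Leaving out 1 OE library gave 2 to 48 genes against the mean, 20 to 31 against 6 h, 0 to 12 against 24 h, 12 to 60 against 48 h, 67 to 99 against 96 h and 0 to 3 against all 4, and 5 to 11, 0 to 2 and 0 to 1 lower than at 6, 48 and 96 h. Leaving out 1 WT library, the rule chose 92 to 147 of the genes again, with 23.3 to 36% called against the mean and 0 to 2% against all 4. A minimum of 10 CPM gave 2% against all 4. For the 30 named genes, 393 values stayed on their side of the threshold, 43 lost the call and 14 gained it. Only the 13 named genes called higher in OE than the mean could lose a call. No paired analysis was possible because the labels carry no replicate numbers. With 2 libraries a group, small differences could be missed at this spread. The smallest difference called against the mean was 0.41 on the log2 scale.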
